A study of Mus musculus with 6 samples.

Results

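Regulatory T cells that carry Foxp3, the transcription factor that defines them, made up 824 of the 26843 cells kept from 5 libraries of mouse mammary tumours. They were chosen on raw UMI counts (a UMI is a tag that counts 1 captured RNA molecule): at least 2 UMIs of Cd3e, Cd3d and Cd3g together, at least 1 Foxp3 UMI, none of Cd8a, Cd8b1 or Cd79a, and fewer than 10 of the complement genes C1qa, C1qb and C1qc. The cells came as 120 from MRX, 230 from CTX, 190 from Combined, 123 from ctxd18t and 161 from combod18t. They are called Foxp3 cells here. CD3 cells that met the same limits with at least 1 Cd4 UMI and no Foxp3 UMI are called conventional CD4 cells.

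All libraries held live mouse mammary tumour cells sorted for CD45, which marks cells of the blood lineages. The series title names MERTK inhibition and immunomodulatory cyclophosphamide in triple negative breast cancer. Each library is called by its treatment label, since the labels do not spell out MRX, CTX, Combined, ctxd18t or combod18t, and the sixth label, VC, was not analysed here. The protocol text, the same on every library, speaks of mice at day 7 that were treated shortly before harvest; 2 labels carry d18, read here as day 18. The tumour model, the strain and age of the mice and the number of tumours behind a library are not given in the sources used here. There was 1 library per label, so no difference below has a replicate check or a test, and every interval is a 95% interval that covers counting error only.

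Regulatory T cells restrain other lymphocytes. Foxp3 holds their identity together with Helios (Ikzf2), the high-affinity IL-2 receptor chain CD25 (Il2ra) lets them take up the growth factor IL-2, and CTLA-4 (Ctla4) strips costimulatory ligands from antigen-presenting cells. In tumours and barrier tissues many of them take on an activated state with TNF-receptor family members, KLRG1 and the IL-33 receptor ST2 (Il1rl1), while resting regulatory cells keep the genes of lymphoid homing and quiescence.

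The Foxp3 cells had a median depth of 5729.5 UMIs (MRX), 8681.5 (CTX), 8203 (Combined), 7187 (ctxd18t) and 9279 (combod18t), and their summed UMIs ran from 878728 in MRX to 2563860 in CTX. Barcodes were shared by CTX and combod18t (34 barcodes) and by Combined and ctxd18t (21 barcodes), and by no other pair; none of them was a Foxp3 cell in both libraries. The protocol gives Combined and CTX a barcode set each and names no set for the day 18 libraries. Whether the day 18 labels follow the same order was not tested; were they exchanged, every difference between combod18t and ctxd18t would change sign. Transcripts of other cell types were also present: 23 MRX, 39 CTX, 41 Combined, 31 ctxd18t and 28 combod18t Foxp3 cells held at least 10 UMIs of the monocyte-macrophage markers or at least 3 of another lineage's markers. All 9 monocyte-macrophage markers were detected in every library, at a summed 920.2 CPM, the count of a gene scaled to the summed UMIs of the cell group, in combod18t to 2496 in Combined, against 4066 to 11690 in the rest of the same libraries. NK markers reached 288.9 CPM in Combined and were between 5.37 and 79.7 CPM in the other libraries, with Klra8 at 0 in all. Epithelial markers stood at 629.1 CPM in ctxd18t, where a single cell held 51.35% of their counts, and at 30.8 to 50.5 CPM elsewhere, where Epcam gave nearly all of them. At least 3 epithelial UMIs were held by 3 MRX, 7 CTX, 8 Combined, 9 ctxd18t and 10 combod18t cells. Epcam was itself higher in Foxp3 cells than in conventional CD4 cells, as given below. Leaving out the marked cells may therefore also remove Foxp3 cells that express it. Neutrophil markers had 386.5 CPM in ctxd18t (81.87% from 1 cell) and 687.1 in combod18t (38.55% from 1 cell), against 12.1 to 69.4 CPM in the other libraries, and dendritic cell markers 26.5 to 135.4 CPM. B-lineage markers summed to at most 13.97 CPM. Values without these cells are given beside many of the results below.

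The cells carried the markers of the label in every library. Il2ra stood at 674.8 CPM (MRX), 711 (CTX), 754.7 (Combined), 671.2 (ctxd18t) and 617.8 (combod18t), where the conventional CD4 cells had 102.2, 117.7, 153.5, 92.46 and 38.35 CPM. Ikzf2 had 2705, 2094, 1893, 3349 and 3628 CPM in the same order of libraries, and 462.4, 535.2, 522.5, 836.8 and 218.2 CPM in the conventional cells. The Foxp3 cells lay above the conventional cells in all 5 libraries for both genes, and no library came near the other group's range. Ctla4 stood at 2131, 2112, 1727, 1848 and 1738 CPM against 732.6, 542.3, 572.7, 728.2 and 196.4 CPM. Il1rl1 had 353.9, 220, 304.1, 362.1 and 419.5 CPM against 29.25, 37.92, 45, 19.55 and 20.31 CPM. Foxp3 itself had 292.5, 231.7, 257.6, 275.8 and 283.1 CPM, a level that the gate sets in part. Between 70% of the Foxp3 cells (MRX) and 84.47% (combod18t) also held a Cd4 UMI.

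Cells near the gate differed in degree. Those with a single Foxp3 UMI numbered 58 (MRX), 77 (CTX), 54 (Combined), 34 (ctxd18t) and 41 (combod18t), and their Il2ra level was 467.6, 671.4, 520.6, 306.3 and 641.1 CPM. Just outside, CD3 cells without Cd8 and without Foxp3 UMIs had 101, 100.5, 153.1, 98.3 and 67.09 CPM of Il2ra. Cells left out for a single Cd8 UMI were few, between 12 and 22 per library, with 327.7 to 878.3 CPM of Il2ra. Those left out for 2 or more Cd8 UMIs had a median depth of 10321 to 22017 UMIs, above that of the Foxp3 cells in each library. Few cells of other lineages held a Foxp3 UMI. For B cells it was 0 of 313, 0 of 560, 0 of 610, 0 of 738 and 1 of 229 at full depth (median 4146.5 to 8313 UMIs). The Clopper-Pearson intervals of the counts of 0 reach 0.499% to 1.17%. For cells with at least 10 C1q UMIs and no Cd3 UMI it was 2 of 534, 1 of 1580, 2 of 305, 0 of 295 and 1 of 113. After thinning these included 5 of 965 in CTX and 2 of 109 in combod18t. Among CD8 T cells the share, which was at most 2.47% after thinning, was 1.69% (MRX), 4.95% (CTX), 6.60% (Combined), 7.57% (ctxd18t) and 8.37% (combod18t).

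Against conventional CD4 cells of the same library, 40 of 5011 expressed genes (0.798%) were at least 2-fold higher in the Foxp3 cells in all 5 libraries and 62 (1.24%) at least 2-fold lower. A gene counted as expressed with at least 50 counts and 50 CPM in 1 of the groups compared. Because the gate itself separates these classes, the contrast is a description. Of the 8 expressed genes of the regulatory identity list, 6 were among the higher ones. The rest included Klrg1, an inhibitory receptor for cadherins; Itgae, the CD103 chain that binds E-cadherin; Itgb8, an integrin chain that activates latent TGF-beta; Gzmb, the protease granzyme B; and the costimulatory receptors Tnfrsf9 (4-1BB) and Tnfrsf4 (OX40). Rln3, a relaxin-family peptide gene, had the largest minimum ratio of the 40, with 64.87, 119, 85.37, 56.05 and 33.31 CPM against 8.73, 10.7, 4.88, 9 and 0.114 CPM. Epcam, an adhesion protein on the epithelial list used here, was also among the 40, at 43.24, 39.78, 29.8, 387.2 and 49.96 CPM against 20.52, 8.34, 7.33, 7.76 and 5.9 CPM. In ctxd18t a single cell held 310 of its 525 UMIs, while in the other libraries 27 to 53 cells held at least 1 and no cell more than 23. Of the 10 expressed genes of resting cells and lymphoid homing, 5 were among the lower ones, led by Tcf7, a factor of memory and stem-like T cells, at 38.69, 24.18, 40.41, 59 and 92.93 CPM against 314.8, 173.3, 203.4, 353.1 and 445.7 CPM. The helper gene Cd40lg, which encodes the CD40 ligand, was also among the lower ones, at 6.83 to 33.19 CPM against 67.73 to 166.8 CPM.

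**Figure D1:**
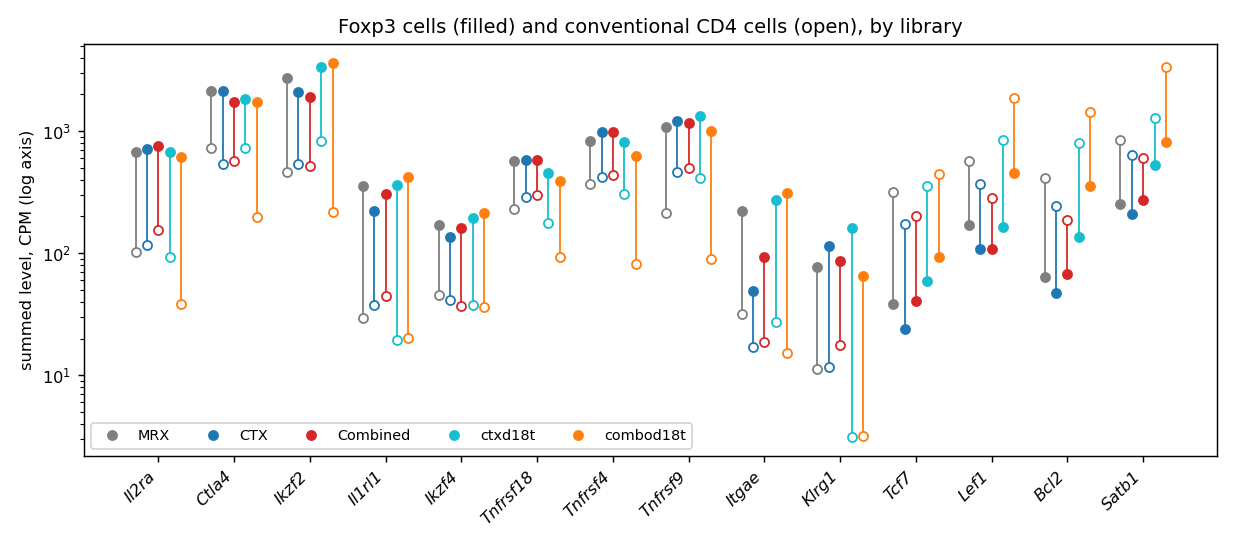
Summed level of identity, activation and resting genes in CPM (log axis) in Foxp3 cells (filled points) and conventional CD4 cells (open points), with a line joining the values of 1 library. Il2ra, Ctla4, Ikzf2 and Il1rl1 are higher in Foxp3 cells in 5 of 5 libraries; Tcf7 lies at 24.18 to 92.93 CPM in Foxp3 cells and 173.3 to 445.7 CPM in conventional cells.

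The first question was how common the Foxp3 cells were in each library. Of CD3 cells, they were 5.85% (4.88% to 6.96%) in MRX, 10.56% (9.30% to 11.93%) in CTX, 14.75% (12.86% to 16.81%) in Combined, 8.88% (7.44% to 10.5%) in ctxd18t and 6.06% (5.18% to 7.03%) in combod18t (exact Clopper-Pearson intervals). Combined had the highest share and its interval overlapped no other, while those of MRX and combod18t overlapped each other. Cells were also thinned at random to 2000 UMIs and gated again, with shallower cells left out. This kept 5289 of 5440 cells (MRX), 8717 of 8898 (CTX), 4388 of 4476 (Combined), 3808 of 4011 (ctxd18t) and 3888 of 4018 (combod18t). The shares were then 3.69%, 6.75%, 8.86%, 5.02% and 3.44%, in the same order of libraries apart from MRX and combod18t, which exchanged places. The denominator carried much of the picture. Of all kept cells the Foxp3 cells were 2.21% (MRX), 2.59% (CTX), 4.25% (Combined), 3.07% (ctxd18t) and 4.01% (combod18t).

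Combined exceeded CTX by 4.19 percentage points of CD3 cells (1.91 to 6.57, Newcombe interval) and by 1.66 points of all kept cells (1.01 to 2.36). The excess was 2.10 points of CD3 cells (0.101 to 4.26) after thinning and 2.80 points (0.735 to 4.97) without the Foxp3 cells that carried other-type transcripts. In all shares given without those cells they were dropped from the Foxp3 count only. The denominators still held them, and other cells with such transcripts were not removed. Of conventional and Foxp3 CD4 cells together, Foxp3 cells were 30.24% in Combined and 22.69% in CTX; after thinning these became 12.24% and 10.15%, with an interval of the difference from -2.76 to 7.46 points. Of CD3 cells without Cd8 the excess was 4.12 points (0.464 to 7.85), with an interval that included 0 after thinning (1.65, -1.12 to 4.56), without the cells carrying other-type transcripts (2.33, -1.02 to 5.78) and with a Cd4 UMI required (2.87, -0.341 to 6.19). At day 18 the order depended on the denominator. The combod18t library lay 2.82 points of CD3 cells below ctxd18t (-4.65 to -1.13) and 10.24 points of CD4 cells below it (-14.4 to -6.42). The CD3 difference was -1.58 points (-3.11 to -0.178) after thinning and -1.64 points (-3.27 to -0.145) without the cells carrying other-type transcripts, and the CD4 difference was -4.60 points (-8.84 to -1.16) after thinning. Of all kept cells it lay 0.940 points above (0.132 to 1.76), a difference of 0.172 points (-0.415 to 0.760) after thinning and of 0.819 points (-0.0069 to 1.65) without the highest 5% of Scrublet scores. Conventional CD4 cells numbered 372 in ctxd18t and 1210 in combod18t, so the CD3 and CD4 denominators differed in make-up. Per 100 CD8 T cells there were 12.1 Foxp3 cells (MRX), 27.85 (CTX), 49.74 (Combined), 18.66 (ctxd18t) and 20.72 (combod18t). MRX had the lowest share of CD3 cells among MRX, CTX and Combined, 4.71 points under CTX (3.06 to 6.36) and 8.90 points under Combined (6.76 to 11.14). Of all kept cells CTX lay 0.379 points above MRX, with an interval that included 0 (-0.147 to 0.880). Of CD4 cells CTX and Combined lay 5.15 points (0.497 to 9.61) and 12.71 points (7.25 to 18.1) above MRX, but after thinning the differences were -0.0019 (-4.94 to 4.53) and 2.10 (-3.40 to 7.71), with intervals that included 0.

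**Figure D2:**
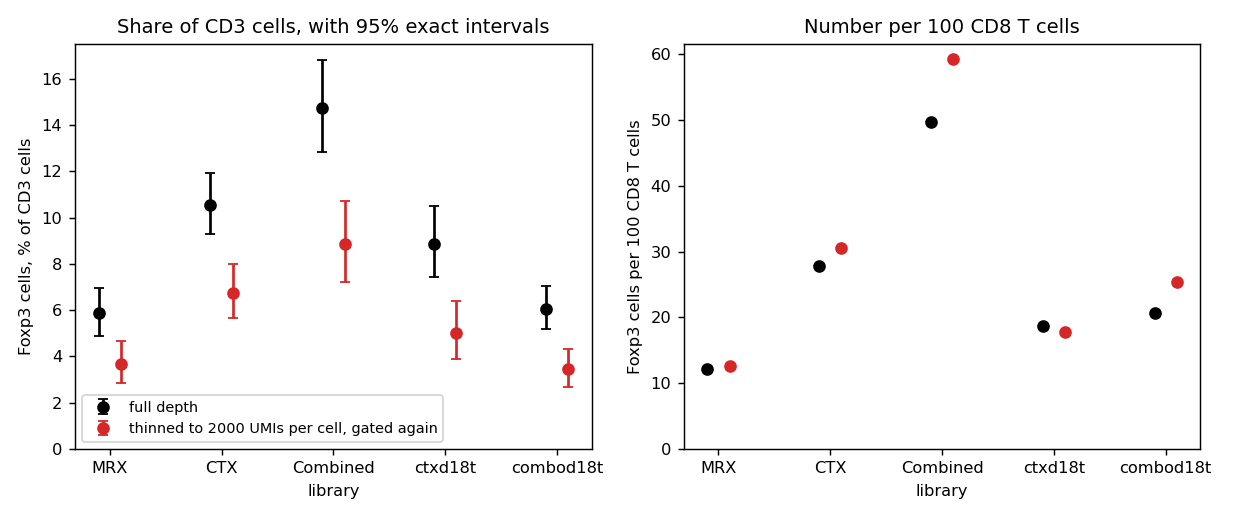
Foxp3 cells in each library, as percent of CD3 cells with exact 95% intervals (left) and per 100 CD8 T cells (right), at full depth (black) and after thinning to 2000 UMIs per cell and gating again (red). Combined is highest on both scales, at 14.75% of CD3 cells and 49.74 per 100 CD8 T cells at full depth.

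Combined was next compared with CTX inside the Foxp3 cells. Few genes differed 2-fold: 21 of 3966 expressed genes (0.530%) were at least 2-fold higher in Combined and 15 (0.378%) at least 2-fold lower, 0.908% in all, and without the cells carrying other-type transcripts the counts were 21 (0.538%) and 10 (0.256%). A counting interval that excluded 0 was far more common: it lay above 0 for 877 genes (22.1%) and below 0 for 575 (14.5%), the shares against which the counts of intervals in each list are to be read. The median log2 ratio of all expressed genes was 0.05 (on the scale of log2 of CPM + 1, so low genes look less changed than they are). Higher levels in Combined were found for Socs1, an inhibitor of cytokine signalling, and for most genes of resting cells, while Il10, Havcr2 and the mitotic genes Cenpf and Cenpe were lower.

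Identity genes were close. None of the 8 expressed genes of that list was 2-fold apart, and their median log2 ratio was 0.09. Foxp3 differed by 0.15 (-0.02 to 0.33) and Il2ra by 0.09 (-0.01 to 0.19), with intervals that included 0; without the cells carrying other-type transcripts they were 0.23 and 0.36, and in thinned cells Foxp3 had -0.06. Ctla4 was lower by a log2 ratio of -0.29 (-0.35 to -0.23). For Ikzf2 the ratio was -0.15 (-0.21 to -0.09), and 0.00036 without the cells carrying other-type transcripts. Il1rl1 was higher, with a ratio of 0.47 (0.30 to 0.64), and the thinned share of Foxp3 cells with an Il1rl1 UMI was 38.42% in Combined and 30.13% in CTX (57.37% and 46.52% before thinning), where no B cell of 609 and 557 held one.

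The IL-2 and STAT5 list gave 1 of 9 expressed genes past 2-fold, a median log2 ratio of 0.48 and 7 of 9 intervals above 0 (22.1% of all expressed genes). Without the cells carrying other-type transcripts none of 9 was past 2-fold and the median was 0.47. Socs1 itself had 91.04 CPM (MRX), 95.17 (CTX), 219.2 (Combined), 102.5 (ctxd18t) and 78.97 (combod18t). Combined stood alone, and its ratio to CTX was 1.20 (0.97 to 1.44), or 1.00 without the cells carrying other-type transcripts and 0.92 in thinned cells. Cish, another target gene of STAT5, had 115.7 CPM in Combined and 70.21 in CTX (ratio 0.71, 0.43 to 1.01). Il2rb, the shared beta chain of the IL-2 and IL-15 receptors, had 360.2 and 257.8 CPM (0.48, 0.33 to 0.64). In conventional CD4 cells the ratio of Socs1 was 0.85 and that of Il2rb 0.65, so these genes were also higher there in Combined; the difference between the cell classes was not tested.

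For genes of resting and recirculating T cells the median was 0.45 on the log2 scale in Foxp3 cells, with 8 of 9 intervals above 0 (22.1% of all expressed genes) and none of 9 past 2-fold. The conventional cells gave -0.14. Klf2, a factor that maintains quiescence and lymphoid homing receptors, had 92.44 CPM in CTX and 185.4 in Combined (ratio 1.00, 0.76 to 1.25). Bach2, a repressor that holds back effector differentiation, had 115.1 and 167.7 CPM (0.54, 0.31 to 0.77). Lef1, a partner of Tcf7, did not differ (108.8 and 108.6 CPM, ratio -0.0028, -0.27 to 0.26). In the same direction, Itgae was higher in Combined (49.14 against 92.44 CPM, ratio 0.90, 0.58 to 1.25), and 19.47% of thinned Combined cells held an Itgae UMI against 10.48% in CTX (41.58% and 27.39% before thinning; B cells 0 of 609 and 0.180%).

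Among the activated and suppressive genes the values went both ways. Havcr2, which encodes the inhibitory receptor TIM-3, had 102.4 CPM (MRX), 94.78 (CTX), 36.88 (Combined), 70.07 (ctxd18t) and 94.54 (combod18t). Combined was the lowest library, with a ratio to CTX of -1.34 (-1.76 to -0.98) in the Foxp3 cells and -0.75 in conventional CD4 cells; thinned Foxp3 cells gave -2.28. Il10, an anti-inflammatory cytokine, had 66, 59.29, 21.72, 44.25 and 16.65 CPM in the same order. Its level in Combined lay below CTX by a log2 ratio of -1.41 (-1.97 to -0.95), or -0.72 in thinned cells; these counts came from 11 of the Combined cells and 27 of the CTX cells, and 1 CTX cell held 33 of the 152 UMIs. Maf, a factor that drives Il10, had 364.7 CPM in CTX and 242.5 in Combined (-0.59, -0.75 to -0.43). Gzmb was close (482.9 and 552.1 CPM, 0.19, 0.07 to 0.31). Over the lists, 1 of 16 activated-state genes and 1 of 8 suppressive genes were past 2-fold, both lower, with medians of -0.04 in each.

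Cell cycle genes had a median of -0.13, with none of 14 past 2-fold and 7 intervals below 0 (14.5% of all expressed genes). Among the genes named by size, the kinetochore genes Cenpf (85.03 CPM in CTX, 31.82 in Combined, ratio -1.39, -1.85 to -1.01) and Cenpe (88.54 and 47.48 CPM, -0.89) were lower in Combined. The others on the lower side were Mt1, a metal-binding metallothionein (143.9 and 38.9 CPM, -1.86, -2.26 to -1.53), the mitochondrial assembly genes Pet100 (-1.19) and Cox17 (-0.86), Jdp2, an AP-1 family repressor (-0.97), Tmem256 (-0.85), the non-coding Snhg3 (-0.86) and Trerf1 (-0.87). Without the cells carrying other-type transcripts Jdp2 (-1.19), Tmem256 (-1.01), Snhg3 (-1.04) and Trerf1 (-1.09) were past 2-fold. Mt1 and Cox17 were also lower in Combined in conventional CD4 cells, with ratios of -1.08 and -0.78. On the higher side stood Ms4a4b, a membrane protein of T cells (245.3 and 530.4 CPM, 1.11, 0.97 to 1.26), Rasa3, which switches off Ras-family GTPases (78.79 and 160.6 CPM, 1.02), Mgat5, an enzyme that branches N-glycans (62.8 and 129.8 CPM, 1.04) and Klf3, a transcriptional repressor (26.52 and 55.06 CPM, 1.03). The same group held Gadd45g (1.01), Lsamp (1.17), Rundc3b (1.19) and the predicted genes Gm20275 (1.13) and Gm15987 (1.12). In thinned cells the ratios of 4 of these were under 2-fold, at 0.60 for Ms4a4b, 0.53 for Mgat5, 0.32 for Gadd45g and 0.59 for Rundc3b; without the cells carrying other-type transcripts Mgat5 had 0.93 and Rundc3b 0.96. In conventional CD4 cells the ratio of Ms4a4b was 0.01 and that of Klf3 -0.14. The remaining lists gave no gene past 2-fold: the medians were 0.24 for 8 genes of T cell receptor activation, 0.16 for 12 interferon-stimulated genes (0.33 without the cells carrying other-type transcripts), 0.28 for 5 genes of the p53 response, 0.29 for 8 genes of tissue homing and -0.08 for 6 handling-induced and heat shock genes.

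The day 18 libraries were then compared, combod18t against ctxd18t, with directions that hold only for the labels as given. Of 4262 expressed genes, 40 (0.939%) were at least 2-fold higher in combod18t and 117 (2.75%) at least 2-fold lower, 3.68% in all. Without the 31 ctxd18t and 28 combod18t cells carrying other-type transcripts the lower count was 42 (1.02%) and the higher count 37 (0.900%). Higher in combod18t were the genes of resting and recirculating T cells, led by Lef1, Bcl2, S1pr1 and Bach2. Lower with and without those cells were Klrg1, Jun, Hspa1b, Mir155hg and Gpr183.

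All 10 expressed genes of the resting and homing list had intervals above 0, as did 949 of all expressed genes (22.3%), 4 of them at least 2-fold higher, and the list's median log2 ratio was 0.78 against 0.0072 for all expressed genes. Lef1 had 171.8 CPM (MRX), 108.8 (CTX), 108.6 (Combined), 164.5 (ctxd18t) and 450.2 (combod18t); the ratio was 1.45 (1.24 to 1.67). Bcl2, which blocks mitochondrial cell death, had 63.73, 47.19, 68.19, 136.4 and 352.4 CPM, with a ratio of 1.36 (1.13 to 1.61). In both genes combod18t lay above every other library. S1pr1, the receptor that guides exit from lymphoid tissue, had 105.8, 62.8, 83.35, 76.71 and 197.1 CPM (ratio 1.35, 1.04 to 1.69). Bach2 had 298.2, 115.1, 167.7, 324.5 and 672.6 CPM (1.05, 0.89 to 1.21). Il7r, the receptor chain for the survival cytokine IL-7, reached 1205 CPM against 635.8 in ctxd18t (0.92, 0.81 to 1.04). After thinning, 41.61% of combod18t cells and 21.95% of ctxd18t cells held a Lef1 UMI (71.43% and 46.34% before thinning; B cells 1.31% and 0.816%).

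Without the cells carrying other-type transcripts the list's median was 0.60, 9 of 10 genes stayed above 0, and the ratios were 1.18 for Lef1, 1.15 for Bcl2, 0.92 for S1pr1 and 0.70 for Bach2. Thinned cells gave 0.94 for Lef1 and 0.87 for Bach2. Conventional CD4 cells moved with the Foxp3 cells here: the list's median was 0.94 in them, with 843 and 1863 CPM of Lef1 and 808 and 2324 CPM of Bach2 in ctxd18t and combod18t. Whether the Foxp3 cells differed less than the conventional cells was not tested.

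**Figure D3:**
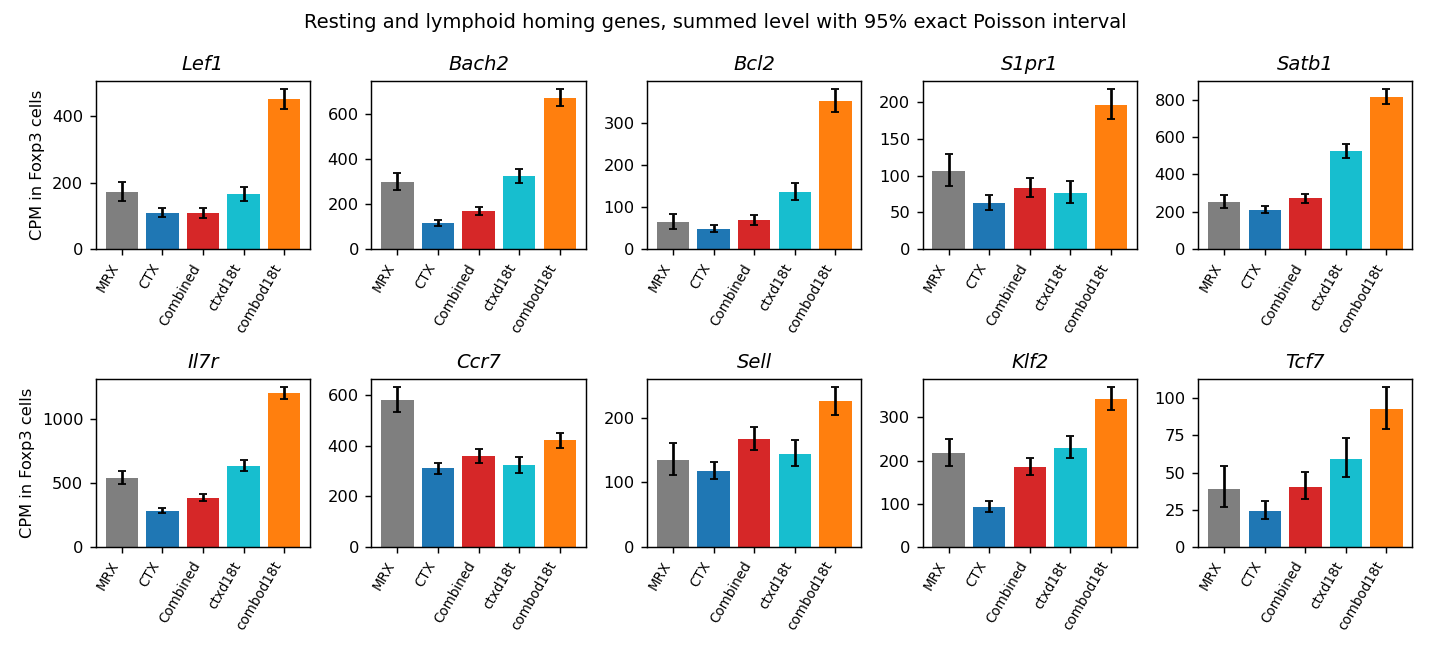
Summed level in Foxp3 cells, in CPM with exact 95% Poisson intervals, of 10 genes of resting cells and lymphoid homing in the 5 libraries. The combod18t bar is the highest for every gene except Ccr7, which is highest in MRX (580.4 CPM against 420.1).

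The identity list gave none of 9 genes past 2-fold and a median of 0.04, or -0.18 without the cells carrying other-type transcripts. Foxp3 had a ratio of 0.04 (-0.16 to 0.23) and Il2ra of -0.12 (-0.25 to 0.01). Ctla4 had -0.09 (-0.16 to -0.01), and Il1rl1 0.21 (0.05 to 0.38). Without those cells the ratios were -0.18 for Foxp3, -0.46 for Il2ra, -0.44 for Ctla4 and 0.05 for Il1rl1. The signs for Foxp3 and Ikzf2 were not stable: the ratio of Foxp3 was -0.45 in thinned cells and kept its sign under 4 of 10 alternatives. For Ikzf2 it was 0.12 (0.06 to 0.17), or -0.11 without those cells, and 5 of 10 kept its sign. The conventional cells of combod18t stood apart for such genes, with 196.4 CPM of Ctla4 against 728.2 in ctxd18t.

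Of the activated-state list, 1 of 17 genes was past 2-fold. This was Klrg1, with 77.38 CPM (MRX), 115.5 (CTX), 86.38 (Combined), 161.5 (ctxd18t) and 65.54 (combod18t). The day 18 libraries were its highest and lowest values, and the ratio was -1.29 (-1.63 to -0.98), or -1.64 without the cells carrying other-type transcripts. Thinned shares of Foxp3 cells with a Klrg1 UMI were 21.95% in ctxd18t and 9.94% in combod18t (42.28% and 27.33% before thinning; no B cell of 735 and 229). The list's median was 0.05, and -0.37 without those cells, with Tnfrsf9 at 1328 and 995.4 CPM (-0.42, -0.51 to -0.32) and Batf, an AP-1 factor of effector regulatory cells, at 146.8 and 88.64 CPM (-0.72, -1.03 to -0.42). Conventional CD4 cells had ratios of -2.18 for Tnfrsf9, -2.24 for Batf and 0.03 for Klrg1. In Foxp3 cells Gzmb had 274.4 and 140.2 CPM (-0.96, -1.20 to -0.74), and 28.46% and 11.18% of thinned cells held its UMI (37.4% and 27.33% before thinning, B cells 0.680% and 0 of 229). None of 8 suppressive genes and none of 9 genes of the IL-2 and STAT5 list were past 2-fold, with medians of 0.06 and 0.01; the latter list includes Socs1, at 102.5 and 78.97 CPM.

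Cell cycle genes had a median of -0.48, with 9 of 12 intervals below 0 (893 of all expressed genes, 21.0%), but without the cells carrying other-type transcripts the median was 0.23. Cdk1, a kinase of mitotic entry and the list's single gene past 2-fold, had 54.58 CPM in ctxd18t and 19.88 in combod18t (-1.41, -2.07 to -0.87), or -0.76 without those cells and -0.12 in thinned cells. The interferon-stimulated list had a median of -0.33, and -0.53 without those cells, with 7 of 12 intervals below 0 (21.0% of all expressed genes); Irf7, the factor that amplifies interferon responses, had 89.24 and 40.83 CPM (-1.11, -1.56 to -0.70; -0.58 without those cells, -0.53 thinned). Handling-induced and heat shock genes had a median of -0.81 with 3 of 8 past 2-fold. Jun had 180 and 36.53 CPM (-2.27; -2.92 without those cells), and Hspa1b 66.38 and 2.69 CPM (-4.19; -3.88 without), a gene whose reads can be shared with its near-identical copy Hspa1a. Atf3 (-1.63) and Egr1 (-1.57, early genes) were lower only with those cells included: their ratios without them were 0.99 and 0.51. Jun and Hspa1b were lower in combod18t in conventional cells as well, with ratios of -2.52 and -4.50. Egr1 was the single gene of 8 past 2-fold in the T cell receptor list (median 0.13) and Gpr183 that of 9 in the tissue homing list (median 0.25); the p53-response list had none of 5 (median -0.20).

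By size, the genes higher in combod18t were Heatr5a (48.68 and 145 CPM, ratio 1.56, 1.18 to 1.99), St8sia6, a sialyltransferase (29.5 and 87.56 CPM, 1.54), Pde2a, which degrades cyclic nucleotides (28.03 and 75.74 CPM, 1.40), and Rasa3 (135.7 and 345.9 CPM, 1.34), which was also higher in Combined than in CTX. Tcp11l2 (1.30), Mctp1 (1.28), Grk5 (1.28), Galk2 (1.21) and Insr, the insulin receptor (26.55 and 61.78 CPM, 1.19), were on the same side; without the cells carrying other-type transcripts the ratios were 1.09 for St8sia6, 2.41 for Mctp1, 0.65 for Grk5, 0.97 for Galk2 and 0.82 for Insr. On the lower side stood Mrpl53, a mitochondrial ribosome gene (50.15 and 12.36 CPM, -1.94; -2.08 without those cells). Mir155hg, the host transcript of miR-155, had 69.33 and 25.78 CPM (-1.39; -1.35 without). Gpr183, an oxysterol receptor that positions lymphocytes, had 219.1 and 105.3 CPM (-1.05; -1.75 without). Without those cells Ifitm3 went from -1.76 to -1.04 (-0.63 in thinned cells), the glycolytic gene Tpi1 from -1.44 to -0.78, and Siva1 from -1.15 to -0.58. C1qbp (-1.18) and Creld2 (-1.17) had -1.04 and -1.01 without them but -0.26 and 0.34 in thinned cells, Uqcc2 (-1.13) had -0.42, and Eps8 changed sign from -1.49 to 1.94. Most of these genes went the same way in conventional CD4 cells. Ratios there were 1.37 for Heatr5a, 1.60 for St8sia6, 0.60 for Pde2a, 1.30 for Rasa3 and 1.30 for Tcp11l2. Mctp1 had 0.97, Insr 0.93, Galk2 0.15 and Grk5 -0.03. Lower there were Tpi1 (-2.03), Ifitm3 (-2.02), Eps8 (-1.57), Gpr183 (-1.135), Mrpl53 (-1.05), Siva1 (-0.90), Creld2 (-0.84), Mir155hg (-0.80), Uqcc2 (-0.80) and C1qbp (-0.42).

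**Figure D4:**
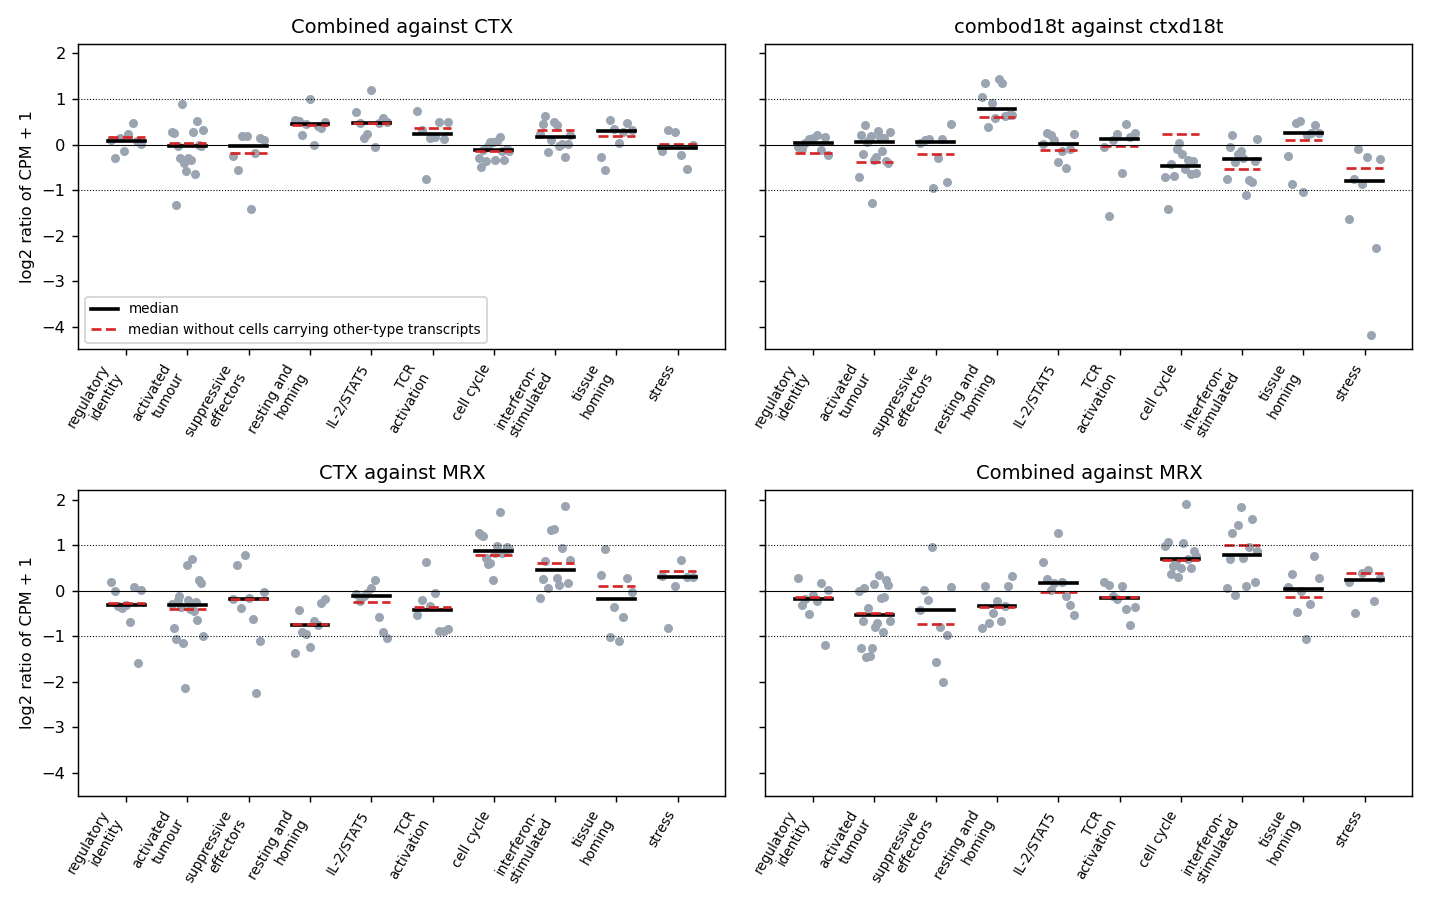
Log2 ratio of CPM + 1 for each expressed gene (points) of 10 gene lists in 4 comparisons of Foxp3 cells; black bars are list medians, red dashed bars the medians without cells carrying other-type transcripts, dotted lines mark 2-fold. The resting and homing median is 0.45 for Combined over CTX and 0.78 for combod18t over ctxd18t; the day 18 cell cycle median moves from -0.48 to 0.23.

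CTX and Combined were each set beside MRX, which both comparisons share, so their values are given side by side. In CTX 106 of 4076 genes (2.60%) were at least 2-fold higher than in MRX and 142 (3.48%) lower, 6.08% in all; in Combined 91 of 4145 (2.20%) were higher and 86 (2.07%) lower, 4.27% in all. Of the cell cycle list 13 of 14 genes in CTX and 12 of 13 in Combined had intervals above MRX, and of the interferon-stimulated list 8 and 9 of 12. Over all expressed genes the shares with such an interval were 22.2% in CTX and 21.3% in Combined. Ly6a and Cdkn1a were higher in both, and Itgae, Nt5e, Nrp1 and Il1r2 were lower. The Foxp3 cells of MRX were also the shallowest, and the part of depth in these values was not tested beyond the thinned values given.

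The cell cycle list stood at a median of 0.88 on the log2 scale in CTX, with 4 of 14 past 2-fold, and 0.70 in Combined, with 3 of 13. Rrm2, a subunit of the enzyme that makes deoxynucleotides, had 56.9 CPM in MRX, 191.5 in CTX and 215.7 in Combined (1.73 and 1.90). In cells thinned to 2000 UMIs, 26.5% of MRX, 42.36% of CTX and 36.84% of Combined Foxp3 cells held a Mki67 or Top2a UMI (46.67%, 60.43% and 61.05% before thinning; thinned B cells 8.74%, 8.08% and 5.91%). The ctxd18t and combod18t shares were 27.64% and 21.12%, with 22.04% and 17.47% of B cells there.

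The interferon-stimulated list gave medians of 0.46 in CTX and 0.80 in Combined, with 3 and 4 of 12 genes past 2-fold. Not every member was higher: Bst2, which tethers budding virus, had 353.9 CPM in MRX and 315.1 in CTX. Ly6a, the Sca-1 antigen, had 389.2 CPM (MRX), 1407 (CTX), 1165 (Combined), 573.8 (ctxd18t) and 324.5 (combod18t) (1.85 and 1.58 against MRX). CTX and Combined stood above the other 3 libraries. In MRX, CTX and Combined, Ly6a had 101.3, 378.4 and 476.1 CPM in conventional CD4 cells and 298.1, 725.8 and 665.2 CPM in CD8 T cells. Its higher level was thus not limited to Foxp3 cells. In Foxp3 cells the GTPase genes Igtp (73.97, 187.2 and 202.1 CPM in MRX, CTX and Combined) and Iigp1 (62.59, 161.1 and 226.8 CPM) showed the same order as each other. Of the p53-response list, Cdkn1a, which encodes the cycle inhibitor p21, had 147.9, 381.8 and 481.4 CPM (1.36 and 1.70; 2.02 and 2.42 without the cells carrying other-type transcripts), with 1 of 5 genes past 2-fold higher in each comparison. On the other side of that list Trp53inp1 had 257.2, 93.22 and 126.3 CPM (-1.45 and -1.02; the latter was -0.92 without the cells carrying other-type transcripts and -0.98 in thinned cells). In conventional CD4 cells Cdkn1a had 140.6, 417.5 and 414 CPM, so its higher level was not limited to Foxp3 cells.

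Itgae, Nt5e, Nrp1 and Il1r2 were lower than in MRX, while Gzmb of the suppressive list was higher (281.1 CPM in MRX, 482.9 in CTX and 552.1 in Combined). Itgae had 220.8 CPM (MRX), 49.14 (CTX), 92.44 (Combined), 274.4 (ctxd18t) and 311 (combod18t), and CTX and Combined were its 2 lowest values (-2.15 and -1.25 against MRX). Nt5e, the CD73 enzyme that makes adenosine, had 113.8, 23.4, 27.78, 84.08 and 91.32 CPM (-2.23 and -1.996). Nrp1, a coreceptor linked to thymus-derived regulatory cells, had 102.4, 33.54, 44.45, 78.18 and 88.1 CPM (-1.58 and -1.19). All 3 genes were lowest in CTX, next in Combined and highest in MRX or at day 18. Il1r2, the decoy receptor for IL-1, had 293.6, 132.6, 108.6, 134.2 and 142.9 CPM, and MRX alone was high (-1.14 and -1.43; -0.79 and -0.89 without the cells carrying other-type transcripts; -0.45 and -1.54 in thinned cells). Penk, which encodes the enkephalin precursor, had 380.1, 177.1, 194.5, 520.7 and 294.4 CPM, a ratio of -1.10 in CTX against MRX (-1.74 without the cells carrying other-type transcripts); the conventional CD4 cells went the other way for Penk, at 141, 939.7 and 610.8 CPM in MRX, CTX and Combined. By list, 2 of 9 suppressive genes were at least 2-fold lower than in MRX in each, 1 of 9 identity genes (Nrp1) in each, 3 of 18 activated-state genes in CTX and 4 of 18 in Combined, and none of these lists had a gene 2-fold higher. The resting list had medians of -0.74 in CTX and -0.34 in Combined, with 2 and none of 9 genes past 2-fold.

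Foxp3 cells also varied within each library. A split by Il1rl1, chosen after its values were seen and therefore a description, set 47, 107, 109, 61 and 91 cells with an Il1rl1 UMI in MRX, CTX, Combined, ctxd18t and combod18t against 73, 123, 81, 62 and 70 cells without. The 2 sides differed in depth. Median UMIs with and without were 5738 and 5606 (MRX), 7454 and 10445 (CTX) and 7999 and 8886 (Combined). At day 18 they were 8777 and 6241.5 (ctxd18t) and 10315 and 7815 (combod18t). The part of depth in the ratios was not tested. Of 135 list genes with enough counts, 24 were higher in the Il1rl1 cells in all 5 libraries and 8 lower in all 5. By the same rule 421 of all 7921 genes with enough counts (5.31%) were higher and 426 (5.38%) lower, so the lower count of the list genes was near that of all genes. Klrg1 was among the higher ones, at 170.9, 196.8, 123.3, 190.3 and 93.9 CPM with an Il1rl1 UMI and 18.54, 47.86, 37.56, 120.9 and 21.84 CPM without (median log2 ratio 2.02). Gata3, the lineage factor of type 2 lymphocytes, had a median ratio of 0.92, and Ebi3, a subunit of IL-35, 1.26. Il2ra (0.71), Rora (0.68) and Il7r (0.82) were also higher in 5 of 5.

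Il10 went the other way. Its level without an Il1rl1 UMI was 107.5 CPM (MRX), 91.43 (CTX), 41.08 (Combined), 67.57 (ctxd18t) and 30.02 (combod18t), against 20.62, 7.09, 27.73 and 7.97 CPM in the Il1rl1 cells of the last 4. In MRX none of the 47 Il1rl1 cells held an Il10 UMI and 14 of 73 others did, so the level was at least 12.2-fold lower against a floor of 3 counts over the group. The numbers of Il10-positive cells were small elsewhere, with 10 of 107 and 17 of 123 in CTX, 4 of 109 and 7 of 81 in Combined, 6 of 61 and 7 of 62 in ctxd18t, and 4 of 91 and 6 of 70 in combod18t. The resting genes Bcl2 (median -0.98), Bach2 (-0.64), S1pr1 (-0.54), Ccr7 (-0.46) and Tcf7 (-0.49), and Igf1r (-0.97), were lower in the Il1rl1 cells in 5 of 5. The share of list genes lower in 5 of 5 was near that of all genes, so no pattern is read from Il10 or these genes. Without the cells carrying other-type transcripts Il10, Bcl2, Igf1r, S1pr1 and Tcf7 kept that direction in 5 of 5 libraries, while Bach2 and Ccr7 were each higher in CTX (0.04 and 0.34).

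**Figure D5:**
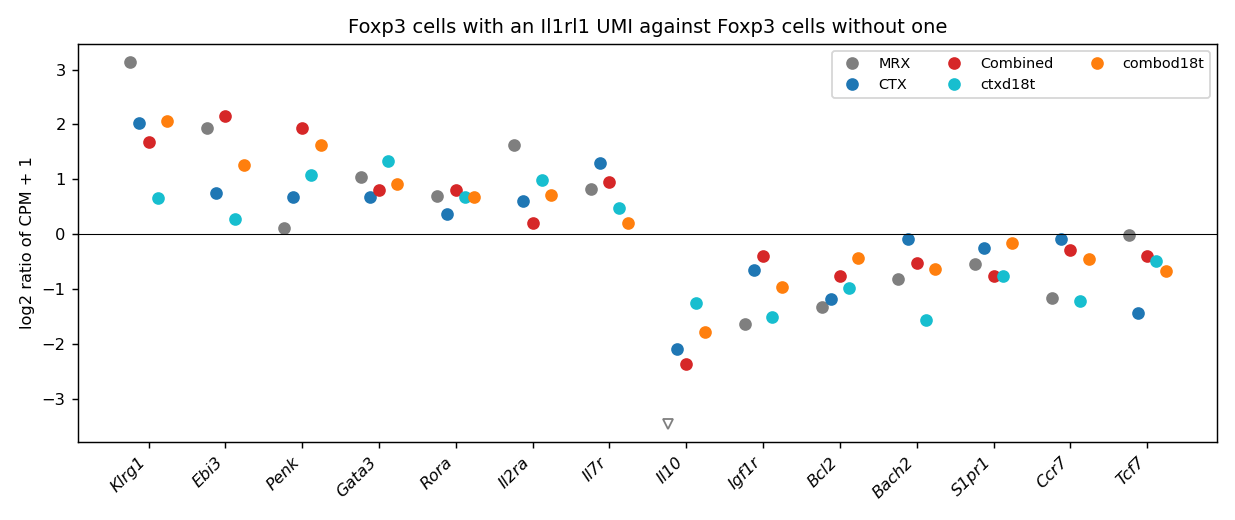
Log2 ratio of CPM + 1 between Foxp3 cells with an Il1rl1 UMI and those without, for 14 genes in each library (coloured points); the open triangle marks Il10 in MRX at the floor of 3 counts. Klrg1 lies above 0 in 5 of 5 libraries (median 2.02) and Il10 below 0 in 5 of 5.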

How the data were processed

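Immune cells of 5 tumour libraries were counted by droplet sequencing with on-chip multiplexing. For each library the authors deposited raw UMI counts (whole numbers, not normalized). Cell Ranger 9.0.1 made them, per the labels' protocols, and GRCm39 and Seurat 5.2.0 are named in the submitters' processing notes. Cells with at least 200 genes and at most 15% mitochondrial counts were kept. The members and gene lists were chosen with earlier results of these data known. Counts were summed over the Foxp3 cells of a library and given as CPM; log2 ratios use CPM + 1 with exact intervals from the conditional binomial, which leave the pseudocount out. Share intervals are Clopper-Pearson and those of differences Newcombe; all cover counting error only. Naming rules were set for Combined against CTX and combod18t against ctxd18t. There a list gene is named when it differed at least 2-fold with an interval excluding 0, or when 1 of the 5 label markers. Also named are the 10 highest and 10 lowest expressed genes of each, seen in at least 5% of cells, with at most 25% of counts in 1 cell, at 0.5 times or more the level in the rest of the library, and no receptor segment or other-lineage marker. Against MRX not every list gene past 2-fold is named. Other genes named were chosen after their values were seen. Doublets were not removed beyond the gate: Scrublet (scanpy 1.11.5, expected rate 0.06) marked 1, 6, 6, 0 and 0 cells by its own threshold, so removal of its highest 5% was an alternative. Other alternatives were thinning each cell to 2000 UMIs, with shallower cells left out, and other gates, scalings, pseudocounts and filters. Leaving out Foxp3 cells with other-type transcripts was added after the data were seen. On simulated counts for Combined against CTX (3966 genes), 100% of 200 changed genes kept their direction and 95.51% of intervals held the true value. For combod18t against ctxd18t (4262 genes) these were 100% and 95.61%. Such counts check the calculation only, since variation between libraries cannot be seen with 1 library per label. The labels name no batch. Coordinates and sequences were not used here.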

Additional observations from a re-analysis of the deposited data

Results flagged for a closer look

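For each item here the difference between Combined and CTX and that between combod18t and ctxd18t had opposite signs, with counting intervals on both sides that excluded 0. Whether the 2 differences differ was not tested, since each library stands alone. The day 18 labels may be in another order than the barcode sets of Combined and CTX, which was not tested; with the day 18 labels exchanged, each second value below would change sign and each pair would have the same sign. The log2 ratio of Socs1 was 1.20 in the first comparison and -0.37 at day 18 (-1.10 in thinned cells). For Havcr2 the ratios were -1.34 and 0.43 (the latter 0.12 without the cells carrying other-type transcripts), and for Trerf1 -0.87 and 0.44. Gpr183 had 0.35 and -1.05. Ikzf2 had -0.15 and 0.12, and without the cells carrying other-type transcripts 0.00036 and -0.11. Among CD3 cells the share of Foxp3 cells was 4.19 percentage points higher in Combined than in CTX and -2.82 points apart at day 18. Among CD3 cells without Cd8 the differences were 4.12 and -10.49 points (1.65 and -4.33 after thinning, the first with an interval from -1.12 to 4.56), and among CD4 cells 7.55 and -10.24 points (2.10 and -4.60 after thinning, the first with an interval from -2.76 to 7.46).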

How the results depend on the processing

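Thinning moved the excess of Combined over CTX among all kept cells from 1.66 to 0.697 points and that over MRX from 2.04 to 0.909. Among CD3 cells the excess of Combined over MRX went from 8.90 to 5.17 points with thinning and to 6.54 with a Cd4 UMI required. All other alternatives kept the share differences of all kept cells and of CD3 cells within their counting intervals. Counts of genes past 2-fold depended on the filter: with all genes of at least 1 count they were 716 higher and 662 lower (Combined against CTX) and 1038 and 1693 (combod18t against ctxd18t), and with at least 200 counts and 100 CPM they were 10 and 3, and 19 and 41. A pseudocount of 10 CPM left 12 higher genes in the first and 20 in the second comparison. Thinning gave 23 lower genes in the first, and 25 higher and 34 lower in the second. Leaving out cells with other-type transcripts gave 42 lower genes at day 18. Signs changed for these genes at day 18: Atf3 to 1.54 with thinning and 0.99 without other-type cells, Egr1 to 0.51 without them, Eps8 to 0.19 and 1.94, Creld2 to 0.34 and Uqcc2 to 0.19 with thinning. Foxp3 in Combined against CTX (0.15) went to -0.06 with thinning. Foxp3 at day 18 (0.04) went below 0 under 6 of 10 alternatives, as far as -0.45 with thinning. Ikzf2 at day 18 went to -0.012 with at least 2 Foxp3 UMIs, -0.013 without C1q or Lyz2 UMIs, -0.021 as a mean over cells, -0.030 with thinning and -0.11 without other-type cells; in Combined against CTX it went to 0.00036 in the last. Against MRX, Il10 in Combined went to 0.20 with at least 2 Foxp3 UMIs, and Il1rl1 to 0.075 as a mean over cells and 0.079 with thinning. The causes were not tested. No paired analysis was possible because each label has 1 library. Depth limits the low genes: a Foxp3 sum of 878728 UMIs in MRX gives few counts under 50 CPM.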
